A study of Mus musculus with 36 samples.

Results

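Mitogen-activated protein kinase (MAP kinase) pathways are switched off by inhibitors that the pathways themselves induce, and 8 such genes were followed through sleep, waking and sleep deprivation in mouse brain. They were the dual specificity phosphatase genes Dusp1, Dusp4, Dusp5, Dusp6, Dusp8 and Dusp10 and the Sprouty genes Spry2 and Spry4. All probe sets that the array annotation assigns to these symbols were taken, which gave 15 of the 45037 probe sets that are not array controls, for 8 of 18193 genes. No measured value entered this assignment of probe sets. The genes themselves, and the gene lists read below, were chosen with earlier results of these data known. Their counts beside all tested probe sets or genes are therefore a description.

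The animals were 18 adult heterozygous Cnp–eGFP-L10a mice on the C57BL/6 strain, in which a tagged ribosomal protein is driven by Cnp, a gene of oligodendrocytes. Every group carries this transgene. Each brain gave a bound array, of messenger RNA immunoprecipitated with the tagged ribosomes, and an unbound array, of the RNA left in the supernatant, which holds neurons and other cells. Sleep deprivation (6 animals) meant 4 h of forced waking in the light period with new objects, following a dark phase spent mostly awake. Waking (6 animals) meant death at 3 to 5 am with at least 70% of the previous 6 to 7 h awake, and sleep (6 animals) meant death at 3 to 5 pm with at least 75% of that time asleep. Because waking and sleep animals died at opposite times of day, state and clock time cannot be told apart between them. The same holds for sleep deprivation, done in the light period, against waking, with death at 3 to 5 am.

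The bound arrays were richer in oligodendrocyte messages and still held neuronal ones. The mean log2 level of 11 myelin genes was 12.79 to 12.89 over the bound state groups and 9.96 to 10.24 over the unbound ones. For 12 neuronal markers it was 10.73 to 10.80 in bound and 12.12 to 12.23 in unbound groups, so neuronal RNA was reduced and not absent in the bound fraction. Sex is not in the labels, and 3 animals stood apart from the other 15 by sex-linked transcripts (waking 3, waking 5 and sleep-deprived 11). Results whose call was lost without these 3 animals are given both ways.

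MAP kinases are active only when phosphorylated on both a threonine and a tyrosine, and dual specificity phosphatases remove both phosphates. Dusp1, Dusp4 and Dusp5 encode nuclear enzymes that are induced as immediate or delayed early genes, Dusp6 encodes a cytoplasmic enzyme selective for ERK, and Dusp8 and Dusp10 encode enzymes that prefer the stress kinases JNK and p38. Sprouty proteins act higher up and dampen the signal from growth factor receptors through Ras to ERK. In oligodendrocytes, ERK signalling is known for its part in myelin growth, and in neurons it is switched on by synaptic activity.

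Promoter sequences are shown because several of these genes moved together between the states. Of the 8 genes, 6 matched the RefSeq promoter table (mouse build GRCm38.p6, 250 bases before to 50 bases after an annotated start). The 4 below are the promoters in which a full motif was found (Dusp1, Dusp5 and Dusp8) and that of Dusp6, the gene with the smallest adjusted p in unbound arrays. Capitals mark the cyclic AMP response element TGACGTCA in Dusp1 and Dusp8 and the serum response element known as the CArG box in Dusp5.
Dusp1 (chr17:26508423-26508722, minus strand): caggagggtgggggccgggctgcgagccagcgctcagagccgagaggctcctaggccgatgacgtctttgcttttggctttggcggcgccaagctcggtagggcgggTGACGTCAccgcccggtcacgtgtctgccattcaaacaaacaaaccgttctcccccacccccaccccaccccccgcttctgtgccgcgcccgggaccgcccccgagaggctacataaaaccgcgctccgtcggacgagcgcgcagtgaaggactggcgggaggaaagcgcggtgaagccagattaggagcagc
Dusp5 (chr19:53528895-53529194, plus strand): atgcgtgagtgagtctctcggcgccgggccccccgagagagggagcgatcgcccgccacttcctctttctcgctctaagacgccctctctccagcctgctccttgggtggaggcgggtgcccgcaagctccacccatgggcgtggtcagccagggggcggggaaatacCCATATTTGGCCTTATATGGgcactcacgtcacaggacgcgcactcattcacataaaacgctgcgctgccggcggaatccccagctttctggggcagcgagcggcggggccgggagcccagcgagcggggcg
Dusp6 (chr10:99262981-99263280, plus strand): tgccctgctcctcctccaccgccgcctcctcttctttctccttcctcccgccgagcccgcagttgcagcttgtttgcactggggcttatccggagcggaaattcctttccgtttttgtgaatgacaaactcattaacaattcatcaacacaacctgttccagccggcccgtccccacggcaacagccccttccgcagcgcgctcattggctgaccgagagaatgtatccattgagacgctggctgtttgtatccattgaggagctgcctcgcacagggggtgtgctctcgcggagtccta
Dusp8 (chr7:142095235-142095534, minus strand): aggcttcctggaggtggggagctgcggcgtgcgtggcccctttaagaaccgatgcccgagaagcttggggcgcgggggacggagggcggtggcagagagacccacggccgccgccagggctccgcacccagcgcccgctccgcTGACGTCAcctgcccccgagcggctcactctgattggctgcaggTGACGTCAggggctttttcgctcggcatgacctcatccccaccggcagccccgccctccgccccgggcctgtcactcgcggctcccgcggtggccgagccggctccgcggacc

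Motifs were searched on both strands of the 6 promoters. A full cyclic AMP response element began at −143 from the start in Dusp1 and at −107 and −63 in Dusp8, and 1.79% of the 32851 promoters in the table hold one. The Dusp8 window, 142095235 to 142095534, lies inside the listed gene, whose upstream end is at 142095907. Its positions therefore refer to an internal annotated start. Dusp5 had 2 adjoining CArG boxes, at −82 and −72, against 1.63% of all promoters with at least 1. The shorter core TGACG, which the full element contains, was found in Dusp1, Dusp5 and Dusp8 and in 20.8% of all promoters. No match to the AP-1 site TGANTCA (7.81% of all promoters) or to the glucocorticoid response element (0.475%) was found in the 6 windows, which says only that these letters are not there. Whether any of these motifs bears on the differences between states was not tested.

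Over the series, values are log2 signals per probe set, and a change was called at an adjusted p below 0.05 in a fit across all 28786 tested probe sets. All 15 member probe sets passed the filter on low values, 13 of them in both fractions and 2 (Spry4 1422021_at and 1445669_at) only in the unbound arrays. One of these, 1445669_at, exceeded the unbound filter by only 0.023, and its mean over waking and sleep arrays alone, 4.73, is below the filter at 5.18. It therefore passed through the sleep-deprived arrays, where it is high. Its values in both fractions are given as a description with no test. The counts of calls against sleep and between fractions are also given without it. Those of groups without overlap and of sleep deprivation against waking name it. Counts under alternative fits and with animals left out include it. Each gene is described first by its lead probe set, the one with the highest mean over the 36 arrays.

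Against sleep, 6 of the 8 genes had a lead probe set that rose in at least 1 of the 4 comparisons (2 states in 2 fractions), beside 13.8% of all 13930 genes tested by their lead probe set. Dusp1, Dusp4, Dusp5 and Dusp6 rose with sleep deprivation in both fractions and with waking in unbound arrays. Spry2 rose with sleep deprivation in both fractions. Spry4 rose with waking in both fractions and with sleep deprivation in unbound arrays. Dusp8 and Dusp10 had no called state change in their lead probe sets. Both comparisons use the same sleep animals. Whether the arrays of all groups were normalized together is not stated in the labels used. The part of this in the differences was not tested. After quantile normalization within the fraction, 31 of 34 called state changes kept their call. That step only evens out the distributions of the arrays and cannot decide how the groups were processed. In bulk RNA, fewer cells of a type and less RNA per cell cannot be told apart.

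**Figure D1:**
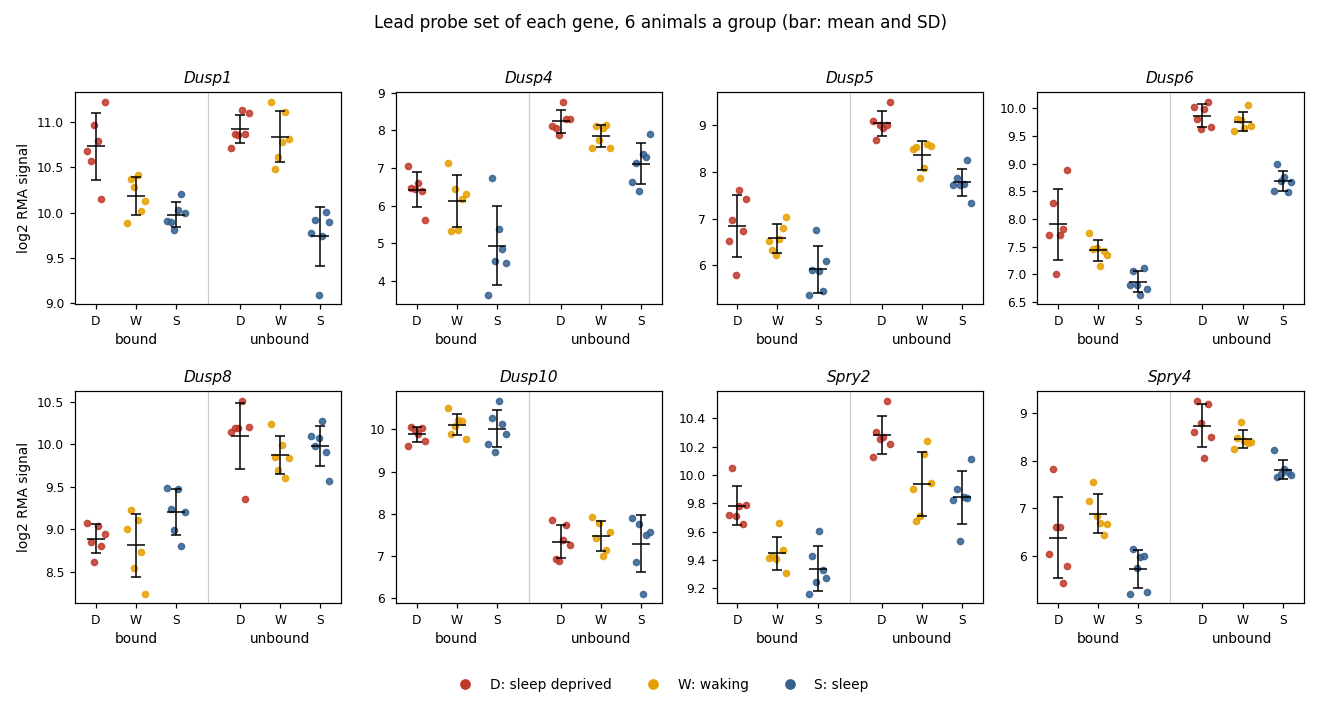
Log2 signal (vertical axis, a separate scale for each gene) of the lead probe set of each gene in every animal; D is sleep deprivation, W waking and S sleep, bound left and unbound right, with mean and SD of 6 animals. Unbound Dusp6 shows both awake groups above 9.58 and all sleep animals at or below 8.99, while Dusp10 shows a step between fractions and none between states.

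Counted over all 15 probe sets, sleep deprivation against sleep gave 7 higher and 1 lower in bound arrays, where 8.05% of all tested probe sets were higher and 6.67% lower (14.7% in either direction). In unbound arrays the same comparison gave 8 calls, all higher, beside 4.72% of all tested that were higher and 3.14% lower (7.86% in either direction). Waking against sleep gave 3 calls in bound arrays, all higher and all Spry4 probe sets, beside 5.08% of all tested that were higher and 4.83% lower (9.91% in either direction). In unbound arrays it gave 7 higher and 1 lower, beside 1.79% and 6.16% of all tested (7.94% in either direction). Without Spry4 1445669_at, unbound arrays had 7 higher with sleep deprivation and 6 higher with waking of 14, and bound arrays had 6 and 2. The median change of the 15 in unbound arrays was 0.75 with sleep deprivation and 0.54 with waking, against medians of 0.02 and −0.09 over all tested probe sets. In bound arrays these medians were 0.44 and 0.20 for the 15, against 0.00 and −0.01 over all. Without Spry4 1445669_at, the medians of the 14 were 0.74 and 0.48 in unbound arrays and 0.34 and 0.15 in bound arrays.

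Groups that did not overlap were also counted. In sleep deprivation against sleep they were 5 of the 15 probe sets in bound arrays (7.5% of all tested) and 6 in unbound arrays (5.2%). In waking against sleep they were 4 in each fraction (6.1% of all tested in bound and 4.66% in unbound arrays). In sleep deprivation against waking they were 1 in bound (3.96%) and 2 in unbound arrays (5.7%). Spry4 1445669_at is among those counted for both states against sleep in bound arrays. It is also among those for sleep deprivation against sleep and against waking in unbound arrays. Beside it, only Dusp5 was counted in unbound sleep deprivation against waking.

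Sleep deprivation against waking separated fewer members. It gave 3 higher and 1 lower of the 15 in bound arrays (3.14% and 2.75% of all tested, 5.88% in either direction) and 3 calls in unbound arrays, all higher (8.83% of all tested were higher and 1.72% lower, 10.5% in either direction). Of the 3 unbound calls, 1 is Spry4 1445669_at. Without the 3 animals that stood apart, 1 of the 15 was called in each fraction, Spry4 1422020_at in bound arrays and that same 1445669_at in unbound arrays. The bound call of 1422020_at was in turn lost when 9 of 12 animals were left out singly (adjusted p up to 0.107). It was also lost with only the 2 groups compared in the fit. Over all alternatives its difference ran from 0.64 to 1.05. In unbound arrays 5 of the 12 neuronal and 4 of the 11 myelin markers were also higher in sleep deprivation than in waking. Beside them, 8.71% of all 13930 genes were higher, and the median difference of all tested probe sets was 0.11. The part of these differences in the member calls was not tested.

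**Figure D2:**
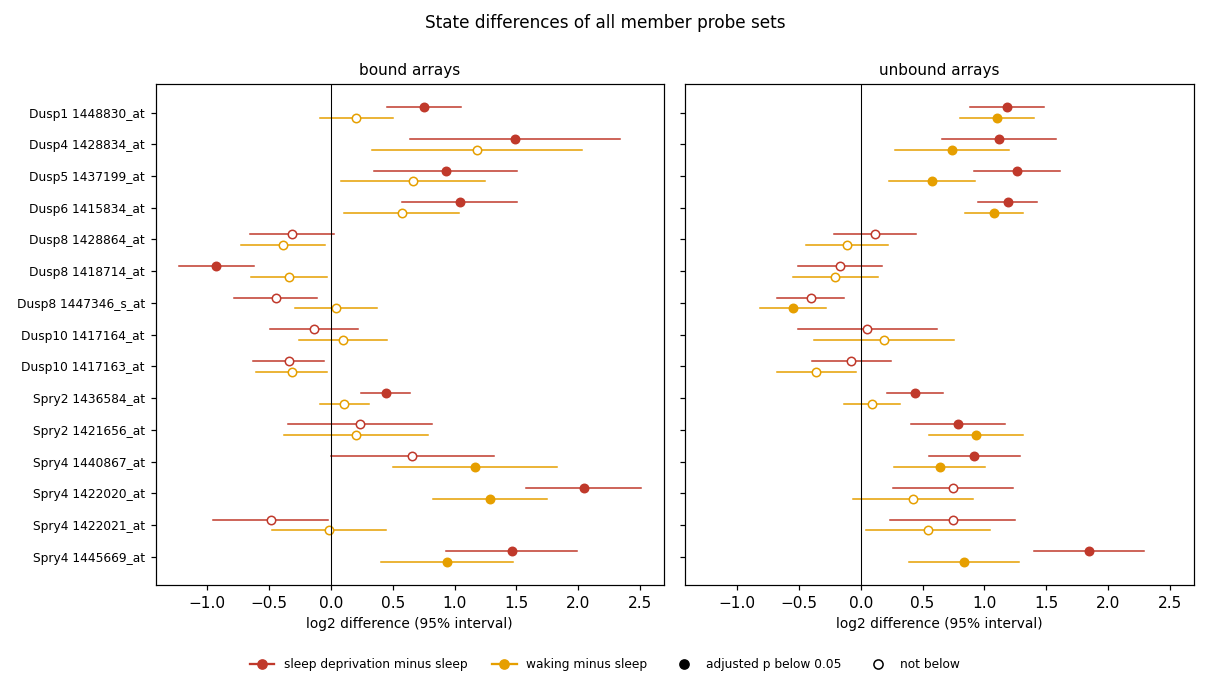
Log2 difference from sleep (horizontal axis, with 95% intervals) of all 15 probe sets in bound (left) and unbound (right) arrays, for sleep deprivation (red) and waking (orange); filled points have an adjusted p below 0.05. Points of Dusp1, Dusp4, Dusp5, Dusp6 and most Spry4 probe sets lie right of 0, those of Dusp8 mostly left.

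Dusp6 (1415834_at), the cytoplasmic ERK phosphatase whose message is widely used as a readout of ERK activity, had 9.62 to 10.12 (median 9.89) in sleep-deprived unbound arrays, 9.58 to 10.06 (median 9.73) in waking ones and 8.49 to 8.99 (median 8.67) in sleep ones. Every animal that had been awake was above every sleeping animal, and the awake groups covered each other. The rise was 1.19 ± 0.11 (SE) with sleep deprivation (adjusted p = 2.95e-06, 2.28-fold) and 1.08 ± 0.11 with waking (adjusted p = 2.01e-05, 2.11-fold). In bound arrays Dusp6 had 7.00 to 8.89 (median 7.77) in sleep deprivation, 7.15 to 7.74 (median 7.44) in waking and 6.63 to 7.12 (median 6.81) in sleep. The sleep-deprived group was spread widely there, and its lowest animal fell within the sleep range. Sleep deprivation raised bound Dusp6 by 1.04 ± 0.22 (adjusted p = 0.00381). With waking the bound difference was 0.57 ± 0.22 (adjusted p = 0.113), although the waking and sleep groups did not overlap. The SD was 0.64 in the sleep-deprived group and 0.19 in each of the others, and with only waking and sleep in the fit the same difference had an adjusted p of 0.0179.

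Dusp1 (1448830_at), the nuclear phosphatase that acts on ERK, JNK and p38, had 10.72 to 11.13 (median 10.87) in sleep-deprived unbound arrays, 10.48 to 11.22 (median 10.80) in waking ones and 9.09 to 10.01 (median 9.83) in sleep ones. Both awake groups lay wholly above sleep. The rise was 1.19 ± 0.14 with sleep deprivation (adjusted p = 5.31e-05) and 1.10 ± 0.14 with waking (adjusted p = 0.000188), while the awake groups differed by 0.09 (95% interval −0.21 to 0.39). In bound arrays Dusp1 had 10.15 to 11.23 (median 10.73) in sleep deprivation, 9.88 to 10.42 (median 10.20) in waking and 9.81 to 10.20 (median 9.96) in sleep. Here waking and sleep overlapped over most of their ranges, and 5 of the 6 sleep-deprived animals lay above both. Bound Dusp1 rose by 0.75 ± 0.14 with sleep deprivation against sleep (adjusted p = 0.00145) and differed by 0.21 ± 0.14 with waking (adjusted p = 0.395). Sleep deprivation exceeded waking by 0.55 ± 0.14 in bound arrays (adjusted p = 0.0273), a call that was lost without the 3 animals that stood apart (0.43, adjusted p = 0.154).

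The waking rise of Dusp1 differed between the fractions. Taken as the bound minus the unbound array of each animal, the change with waking against sleep was −0.89 ± 0.20 (adjusted p = 0.0109), so it was smaller in bound arrays. Dusp1 was the only one of the 15 probe sets called in that test, beside 1.72% of all tested that were lower and 4.38% that were higher (6.1% in either direction). For sleep deprivation against sleep the same difference was −0.43 ± 0.20 (adjusted p = 0.208). The bound minus unbound difference ran from −1.34 to −0.12 in waking animals and from −0.02 to 0.72 in sleeping ones, without overlap. Relative to the median of all probe sets (−0.40) these ranges are −0.94 to 0.28 and 0.37 to 1.11.

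Dusp5 (1437199_at), a nuclear phosphatase specific for ERK, was ordered sleep deprivation, waking, sleep in unbound arrays, with 8.69 to 9.51 (median 9.01), 7.87 to 8.60 (median 8.51) and 7.35 to 8.26 (median 7.74) in these groups. Sleep deprivation was wholly above both other groups, and waking and sleep overlapped. The rise was 1.26 ± 0.17 with sleep deprivation (adjusted p = 0.000128) and 0.57 ± 0.17 with waking (adjusted p = 0.0391). The waking call was lost when 9 of 12 animals were left out singly (adjusted p up to 0.086) and with only waking and sleep in the fit (adjusted p = 0.067). Sleep deprivation exceeded waking by 0.69 ± 0.17 (adjusted p = 0.0136), and by 0.53 (adjusted p = 0.073) without the 3 animals that stood apart. In bound arrays Dusp5 had 5.79 to 7.61 (median 6.86) in sleep deprivation, 6.22 to 7.04 (median 6.55) in waking and 5.38 to 6.77 (median 5.90) in sleep. All bound groups overlapped. Sleep deprivation raised the bound level by 0.93 ± 0.28 (adjusted p = 0.0296, or 0.81 with adjusted p = 0.0823 without the 3 animals), and the waking difference was 0.66 ± 0.28 (adjusted p = 0.141).

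Dusp4 (1428834_at), a nuclear phosphatase close to Dusp1, had 7.87 to 8.77 (median 8.21) in sleep-deprived unbound arrays, 7.53 to 8.14 (median 7.90) in waking ones and 6.38 to 7.91 (median 7.22) in sleep ones. A single sleeping animal reached into both awake ranges. The rise was 1.12 ± 0.22 with sleep deprivation (adjusted p = 0.00413) and 0.74 ± 0.22 with waking (adjusted p = 0.0459, or 0.69 with adjusted p = 0.149 without the 3 animals, and up to 0.102 with 1 animal left out). In bound arrays Dusp4 had 5.63 to 7.06 (median 6.46) in sleep deprivation, 5.34 to 7.12 (median 6.26) in waking and 3.65 to 6.75 (median 4.70) in sleep. The bound sleep group was the most scattered of the Dusp4 groups, with an SD of 1.05. Sleep deprivation raised bound Dusp4 by 1.49 ± 0.41 (adjusted p = 0.0182). The waking difference was 1.18 ± 0.41 (adjusted p = 0.072), and without sleep animal 2 it was 1.54 (adjusted p = 0.00841).

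The phosphatases that prefer JNK and p38 did not follow this pattern. Dusp10 was the only gene of the 8 with more signal in bound than in unbound arrays, in 18 of 18 animals for each of its 2 probe sets. Its lead probe set, 1417164_at, had 9.47 to 10.68 over all bound arrays and 6.11 to 7.92 over all unbound ones, so the fractions were far apart. The excess was 2.64 ± 0.16 (6.23-fold, adjusted p = 3.76e-12), and 2.40 ± 0.08 by the second probe set, 1417163_at. Between states its lead differences ran from −0.23 to 0.19, with adjusted p between 0.486 and 0.936. The 95% interval of sleep deprivation minus sleep was −0.49 to 0.22 in bound arrays, which leaves room for small changes. The second probe set had no called state change either. Its bound means were 9.72 in sleep deprivation, 9.74 in waking and 10.06 in sleep, and its unbound means were 7.52, 7.23 and 7.59.

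Dusp8 was measured by 3 probe sets that did not move alike. Its lead probe set, 1428864_at, had no called state change, with differences from −0.39 to 0.23 over the comparisons of states. The second, 1418714_at, had 7.56 to 7.98 (median 7.77) in sleep-deprived bound arrays, 8.00 to 8.82 (median 8.33) in waking ones and 8.23 to 8.92 (median 8.73) in sleep ones. There the sleep-deprived group lay below both others without overlap. It fell by 0.93 ± 0.15 with sleep deprivation against sleep (adjusted p = 0.000323) and by 0.59 ± 0.15 against waking (adjusted p = 0.0225, or 0.0504 without the 3 animals). The lead probe set differed by −0.31 ± 0.16 (adjusted p = 0.215) in that comparison with sleep. The third, 1447346_s_at, whose suffix marks probes shared between transcripts, was lower with waking in unbound arrays, by −0.55 ± 0.13 (adjusted p = 0.0135). The difference between probe sets of a gene was not tested.

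Spry2 and Spry4 encode the Sprouty inhibitors that act between growth factor receptors and Ras. The Spry2 lead probe set, 1436584_at, had 9.66 to 10.05 (median 9.75) in sleep-deprived bound arrays, 9.31 to 9.66 (median 9.42) in waking ones and 9.16 to 9.60 (median 9.30) in sleep ones. In unbound arrays it had 10.13 to 10.53 (median 10.26) in sleep deprivation, 9.68 to 10.24 (median 9.92) in waking and 9.53 to 10.11 (median 9.84) in sleep. In both fractions the sleep-deprived animals were above all sleeping ones, and waking and sleep largely overlapped. The rise with sleep deprivation against sleep was 0.44 ± 0.10 in bound (adjusted p = 0.00401) and 0.44 ± 0.11 in unbound arrays (adjusted p = 0.0161), and the waking differences were 0.11 and 0.09 (adjusted p = 0.526 and 0.641). Against waking, sleep deprivation was higher by 0.34 in bound (adjusted p = 0.0427) and 0.35 in unbound arrays (adjusted p = 0.0451). Those calls were lost without the 3 animals (adjusted p = 0.166 and 0.074) and when the arrays of a fraction were quantile normalized (0.30 and 0.21, adjusted p = 0.0658 and 0.267).

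The second Spry2 probe set, 1421656_at, gave another picture. In unbound arrays it had 9.00 to 9.90 (median 9.10) in sleep deprivation, 8.61 to 9.66 (median 9.49) in waking and 8.10 to 8.63 (median 8.50) in sleep. Waking was as high as sleep deprivation by this probe set, and only 1 waking animal came down to the sleep range. It rose by 0.79 ± 0.18 with sleep deprivation (adjusted p = 0.0113) and by 0.93 ± 0.18 with waking (adjusted p = 0.00432). In bound arrays its differences were 0.24 and 0.20 (adjusted p = 0.626 and 0.703).

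Spry4 had the most probe sets, 4, and they differed in bound arrays. The lead probe set, 1440867_at, had 5.42 to 7.82 (median 6.33) in sleep-deprived bound arrays, 6.44 to 7.56 (median 6.76) in waking ones and 5.21 to 6.14 (median 5.87) in sleep ones. Waking lay wholly above sleep, and sleep deprivation overlapped both. The rise with waking was 1.17 ± 0.32 (adjusted p = 0.0236), and the difference with sleep deprivation was 0.66 ± 0.32 (adjusted p = 0.177). This waking call was lost when 3 of 12 animals were left out singly (adjusted p up to 0.056). By 1422020_at the bound arrays were ordered without overlap against sleep, with 6.22 to 7.22 (median 6.62) in sleep deprivation, 5.45 to 6.77 (median 5.74) in waking and 4.10 to 5.03 (median 4.59) in sleep. This probe set rose by 2.04 ± 0.22 with sleep deprivation (4.12-fold, adjusted p = 6.17e-06) and by 1.29 ± 0.22 with waking (adjusted p = 0.00112). As a description only, probe set 1445669_at, which is below the filter level in bound arrays, was higher by 1.46 with sleep deprivation and 0.94 with waking. Probe set 1422021_at, also below that level, differed by −0.49 ± 0.22 for sleep deprivation against sleep, which was not called (adjusted p = 0.154).

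In unbound arrays all 4 Spry4 probe sets had positive differences from sleep. The lead probe set had 8.05 to 9.25 (median 8.69) in sleep deprivation, 8.24 to 8.81 (median 8.40) in waking and 7.66 to 8.21 (median 7.73) in sleep. It rose by 0.92 ± 0.18 with sleep deprivation (adjusted p = 0.00314) and by 0.64 ± 0.18 with waking (adjusted p = 0.0303, or 0.57 with adjusted p = 0.117 without the 3 animals). A single sleep animal, at 8.21, lay above the lowest sleep-deprived one. Probe set 1445669_at had 5.59 to 6.73 (median 6.14) in sleep deprivation, 4.81 to 5.54 (median 5.07) in waking and 3.79 to 4.93 (median 4.31) in sleep. By this dim probe set sleep deprivation was above both other groups without overlap. The other 2 probe sets missed the threshold, with 0.75 ± 0.23 and 0.74 ± 0.24 for sleep deprivation (adjusted p = 0.0539 and 0.0635).

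**Figure D3:**
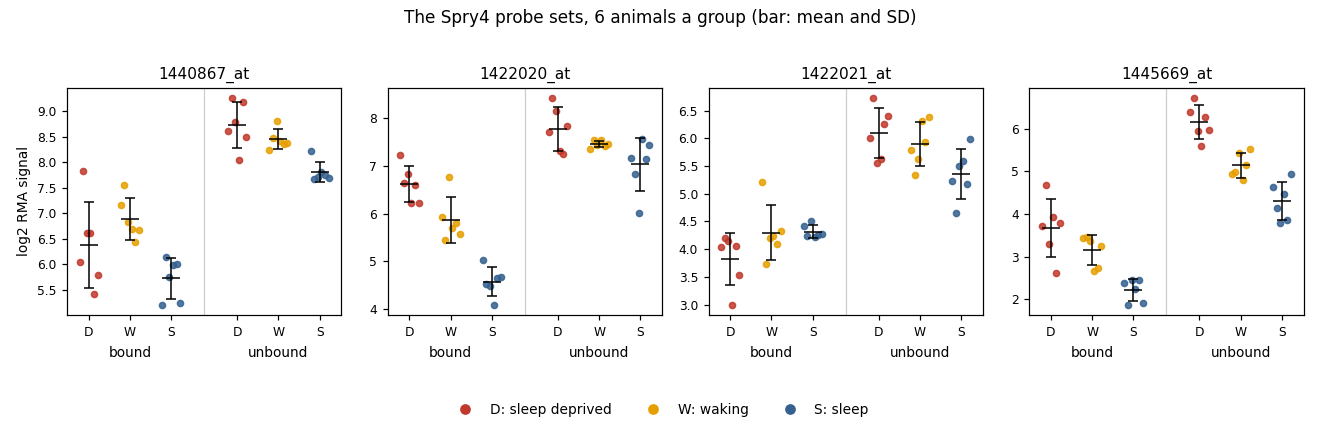
Log2 signal of the Spry4 probe sets (vertical axes on separate scales) in every animal; D is sleep deprivation, W waking and S sleep, bound left and unbound right, with mean and SD of 6 animals. Bound 1422020_at steps down from D over W to S, while bound 1422021_at has its lowest animals, down to 3.00, in D.

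The Spry4 probe sets also differed when the fractions were compared within animals. For sleep deprivation against sleep, the change in bound minus the change in unbound arrays was 1.30 ± 0.32 by 1422020_at (adjusted p = 0.0181) and −1.23 ± 0.29 by 1422021_at (adjusted p = 0.0148). It was −0.26 by the lead probe set (adjusted p = 0.724) and, as a description, −0.39 by 1445669_at. Those of 1422020_at and 1422021_at were the only calls among the 15 in that test. Of all tested, 3.23% were higher and 3.14% lower (6.37% in either direction). For sleep deprivation against waking 0 of the 15 were called by limma (1.37% of all tested were higher and 3.69% lower, 5.05% in either direction), with 5 at an unadjusted p below 0.05. Probe set 1422021_at was below the filter level in bound arrays, its bound change was not called, and its unbound difference of 0.74 makes up the larger share of the −1.23.

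Between the fractions, 7 of the 8 genes were lower in bound than in unbound arrays by the deposited values. All but 1 of the 15 probe sets were called, 2 higher and 12 lower, beside 23.8% and 59.4% of all tested probe sets (83.3% in either direction). Without Spry4 1445669_at they were 2 higher and 11 lower of 14. Since the median of all tested probe sets was itself −0.40, and 0.05 after all 36 arrays were quantile normalized, the members are best read against that median. Dusp6 was lower by −2.04 ± 0.11, Spry4 by −1.99 ± 0.15, Dusp5 by −1.95 ± 0.13 and Dusp4 by −1.90 ± 0.19, each in 18 of 18 animals. Relative to the median of all probe sets these differences were −1.64, −1.60, −1.55 and −1.51, and −1.76, −1.57, −1.55 and −1.41 after quantile normalization. The 12 neuronal markers had a median difference of −1.34 and were all lower. Other cell types were lower too. The median was −1.91 for astrocyte markers (9 of 10 lower, 1 higher) and −2.49 for microglia markers (8 of 8 lower). It was −1.18 for mural cell markers (4 of 5 lower, 1 higher) and −1.14 for endothelium (2 of 2 lower). Precursor markers had 0.52 (4 higher, 3 lower), and the 11 myelin genes had 2.39 and were all higher. Which cells the member signals came from was not tested.

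Dusp8, Spry2 and Dusp1 were closer to equal. Dusp8 differed by −1.02 ± 0.08 and Spry2 by −0.50 ± 0.06, both in 18 of 18 animals, which is −0.62 and −0.10 relative to the median of all probe sets, and −0.86 and −0.35 after quantile normalization. Dusp1 differed by −0.20 ± 0.08 (adjusted p = 0.0258, lower in 11 of 18 animals), which is 0.19 relative to that median. After quantile normalization it differed by −0.04 (adjusted p = 0.655), −0.09 relative to the median, so its direction against all probe sets flips with the scaling. The third Dusp8 probe set, 1447346_s_at, changed its sign with that normalization, with −0.37 as deposited and 0.08 after it.

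**Figure D4:**
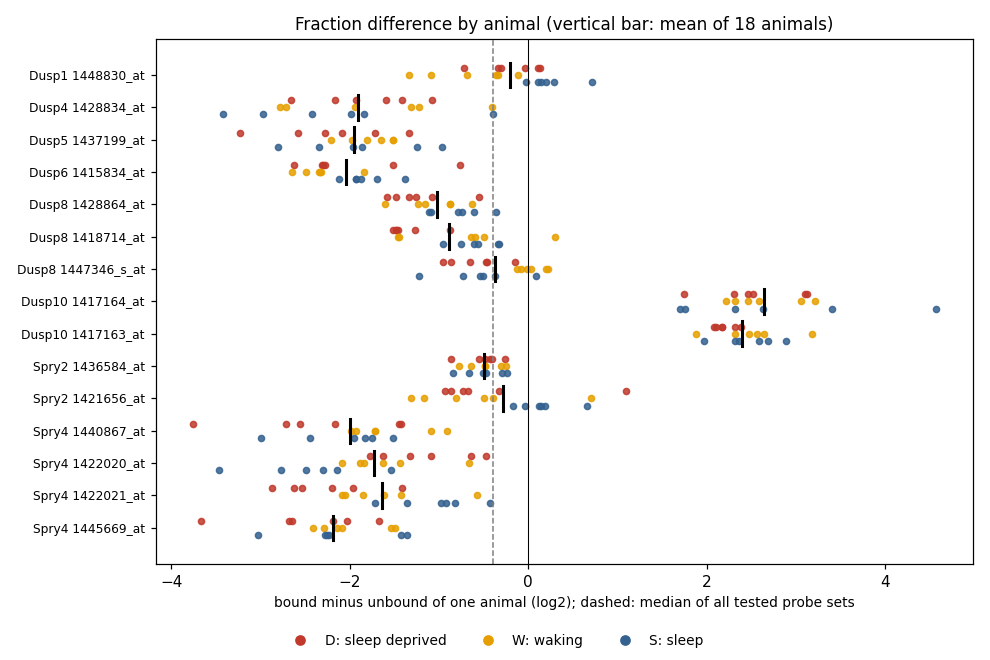
Bound minus unbound log2 signal of each of the 18 animals (horizontal axis) for all 15 probe sets, coloured by state, with the mean as a vertical bar and the median of all tested probe sets (−0.40) as a dashed line. Both Dusp10 probe sets lie far right of 0, Dusp1 lies around 0 with sleep animals to the right of waking ones, and Dusp4, Dusp5, Dusp6 and Spry4 lie left of −1 on average.

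The rest of the pathway was read from lists, with 1 probe set a gene. Of 17 tested transcription factors known as targets of ERK signalling, sleep deprivation raised 9 in unbound arrays and 7 in bound arrays. Beside them, 4.67% and 7.6% of all 13930 tested genes were higher. In bound arrays 1 fell (Jun, named because it was the single one), beside 6.9% of all genes. Waking raised 5 of the 17 in unbound and 7 in bound arrays, beside 1.55% and 4.72% of all genes. The unbound sleep deprivation changes included Nr4a1, an orphan nuclear receptor of the early response, by 2.13 ± 0.19, Egr3 by 0.99 ± 0.09, Egr1 by 0.92 ± 0.09 and Fos by 2.58 ± 0.26. In bound arrays Nr4a1 rose by 1.69 ± 0.13, Fosl2 by 1.68 ± 0.15 and Egr2 by 3.25 ± 0.30. The median change of the list in unbound arrays was 0.50 with sleep deprivation and 0.20 with waking.

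The kinases and the genes upstream of them were read the same way. Among 12 tested genes of the Ras to ERK cascade, the called rises with sleep deprivation were 1 in unbound arrays (Map2k1, the kinase upstream of ERK, by 0.18 ± 0.05) and 2 in bound arrays (Ptpn11, a phosphatase that relays receptor signals to Ras, by 0.76 ± 0.08, and Sos2, an activator of Ras, by 0.38 ± 0.11). The median change of this list was 0.07 in unbound and 0.01 in bound arrays. Of 13 genes of the p38 and JNK cascades, 1 rose with sleep deprivation in unbound arrays (Map3k5, a stress-activated kinase, by 0.37 ± 0.09) and 0 were called in bound arrays by limma (4 of them at an unadjusted p below 0.05). Among 12 growth factor receptors, sleep deprivation raised Ntrk3 by 0.75 ± 0.19 and Fgfr1 by 0.62 ± 0.18 and lowered Fgfr2, which fell by 0.54 ± 0.11, in unbound arrays, and in bound arrays only Fgfr2 was called and fell by 0.31 ± 0.08. That is 3 of 12 and 1 of 12, beside 4.67% of all genes higher and 3.13% lower in unbound, and 7.6% and 6.9% in bound arrays. Among 12 ligands, Btc, a ligand of the epidermal growth factor receptor, fell by 2.17 ± 0.26 and Fgf1 rose by 0.36 ± 0.08 in bound arrays with sleep deprivation. With waking, bound arrays had 2 receptors (Erbb3 by 0.44 ± 0.10 and Fgfr3 by 0.54 ± 0.16) and 2 ligands higher and 2 ligands lower, beside 4.72% of all genes higher and 4.87% lower.

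Relatives of the 8 genes were read in 4 lists. With sleep deprivation, 4.67% of all tested genes were higher and 3.13% lower in unbound arrays. In bound arrays 7.6% were higher and 6.9% lower, and with waking 4.87% were lower there. Of the 4 other MAP kinase phosphatases, 1 changed with sleep deprivation in bound arrays, Dusp16, an enzyme that prefers JNK, which fell by 0.65 ± 0.10 (adjusted p = 0.000308) and by 0.46 ± 0.10 with waking (adjusted p = 0.00717). Of the 11 atypical dual specificity phosphatases, 1 rose with sleep deprivation in unbound arrays (Dusp14, by 0.79 ± 0.23, adjusted p = 0.041). Of the 5 other Sprouty and Spred genes, which share the Ras-directed role, 2 rose in each fraction with sleep deprivation, beside 4.67% of all genes in unbound and 7.6% in bound arrays, and the median change was 0.44 and 0.46: Spred2 by 0.44 ± 0.08 and Spry3 by 0.66 ± 0.20 in unbound arrays, and Spred3 by 0.97 ± 0.23 and Spred2 by 0.46 ± 0.13 in bound arrays. Of 12 other brakes on Ras and ERK, 1 rose with sleep deprivation in unbound arrays, and 2 rose and 2 fell in bound arrays. Errfi1, an inhibitor of epidermal growth factor receptors that is also in the glucocorticoid list, rose by 0.61 ± 0.12 in unbound and 1.01 ± 0.12 in bound arrays.

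Genes known to respond to glucocorticoids, among which Dusp1 is also counted in other tissues, were read beside it. Of 11 such genes, 9 rose with sleep deprivation in each fraction (4.67% of all genes in unbound and 7.6% in bound arrays). With waking, 1 (Plin4) rose in unbound and 3 in bound arrays, beside 1.55% and 4.72% of all genes. Sleep deprivation exceeded waking for 9 of the 11 in unbound and 5 in bound arrays, beside 8.71% and 2.87% of all genes. Fkbp5, a chaperone induced by glucocorticoids, was higher in sleep deprivation than in waking by 0.93 ± 0.20 in unbound and 2.36 ± 0.30 in bound arrays. Dusp1 differed by 0.09 and 0.55 in the same comparisons. Whether these changes bear on each other was not tested.

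For each lead probe set the 2 closest genes were found among 13076, by the root mean square difference of log2 values over the 36 arrays after each gene was centred in each fraction. Dusp6 was closest to Saa3 and Egr1, with differences of 0.359 and 0.369 against a median of 0.652 over all genes compared. Dusp4 was closest to Egr3 (0.502) and Fosl2 (0.562), and Dusp5 to Ier5 (0.389) and Fosl2 (0.422). Spry4 was closest to Klf10 and Ier5 (both 0.440). Dusp1 was closest to Tiparp (0.343) and Ints8 (0.351), and Spry2 to Calr (0.168) and Tlk2 (0.175). Dusp10 was closest to Spin1 (0.343) and Plcd1 (0.344), against its own spread of 0.389, and Dusp8 to Tcf7l2 (0.231) and Fam120a (0.242).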

How the data were processed

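Messenger RNA was measured on 36 single-colour mouse expression arrays, 6 per fraction and state. The deposited values are log2 signals per probe set that the authors made with RMA, per the submitters' processing notes (version not given in the labels used). No further normalization was applied. Array means hardly varied within a group (SD 0.003 to 0.010) and differed between groups (6.41 in unbound sleep deprivation, 6.33 in unbound waking, 6.40 in unbound sleep). Whether all 36 arrays were normalized together is not stated in the labels used; if groups were processed separately, part of a difference between groups could be processing, and this was not tested. Gene symbols come from the platform annotation: of 45101 probe sets, 34945 had 1 symbol, 932 several and 9160 none, and 64 were controls.

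A probe set was tested if its mean reached the 40th percentile in at least 1 fraction (4.47 log2 bound, 5.18 unbound). State comparisons used limma 3.58.1 in R 4.3.3 (data read with data.table, version 1.17.8) on the 18 arrays of a fraction with an intensity trend, and fraction comparisons used differences within animals, whose pairing comes from the labels. The deviations of an animal's 2 arrays from their group means correlated by 0.007 to 0.087. Adjusted p-values are Benjamini-Hochberg over 28786 probe sets, and ± marks limma's standard error. The labels call the samples biological replicates. The number of arrays limits the precision. Scripts were tested on simulated data. Promoters, motifs and figures used Python 3.11.15, pandas 2.3.3, numpy 2.4.6 and matplotlib 3.10.9.

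The members and gene lists were chosen with earlier results of these data known. Every member probe set is named; of list genes, up to 4 called ones per comparison with the smallest p, and of like genes the 2 closest. Alternatives changed the normalization, filter, variance trend, samples fitted, replicate block and animals included.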

Additional observations from a re-analysis of the deposited data

Results flagged for a closer look

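In 4 of 48 groups of 6 animals (8 lead probe sets in 6 groups), 1 animal stood far from the other 5, where about 1 in 20 groups, or 2.4 of the 48, is expected by chance. Spry2 had 10.05 in bound sleep-deprived animal 7 against 9.66 to 9.79 in the others, a gap of 0.665 of the whole range. Dusp8 had 9.35 in unbound sleep-deprived animal 10 against 10.15 to 10.51 (0.685 of the range). Dusp1 had 9.09 in unbound sleep animal 3 against 9.74 to 10.01 (0.705 of the range), and Spry4 had 8.21 in unbound sleep animal 1 against 7.66 to 7.81 (0.728 of the range).

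Changes that differed between the fractions in limma's test of the difference were 3. Dusp1 changed less in bound than in unbound arrays with waking against sleep (−0.89). For sleep deprivation against sleep, Spry4 changed more in bound arrays by 1422020_at (1.30) and less by 1422021_at (−1.23).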

How the results depend on the processing

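The 51 called member changes were refitted under 1026 alternatives, of which 920 kept direction and call, 105 kept the direction and lost the call, and 1 reversed (Dusp8 1447346_s_at between fractions, 0.079 after quantile normalization over all 36 arrays). The counts of called probe sets that moved by over 1.5 times were these. Sleep deprivation against waking in bound arrays gave 1 without the animals set apart by sex-linked transcripts and 1 with only the 2 groups fitted, instead of 4; in unbound arrays it gave 1 without those animals and 1 after quantile normalization within the fraction, instead of 3. Waking against sleep in unbound arrays gave 5 without those animals instead of 8. With the replicate block it gave 3. By the labels, waking and sleep animals share only numbers. Same-numbered deviations correlated by 0.006 to 0.082 in unbound arrays (best with their own number in 3 of 6). In bound arrays they correlated by 0.001 to 0.085 (best with their own number in 4 of 6). Whether same-numbered animals were handled together is not in the labels and was not tested. The block moved no other count past that limit. The fraction difference of sleep deprivation against waking gave 1 with no filter instead of 0.

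Leaving out 1 animal at a time gave 1 to 3 calls for bound waking against sleep (1 without sleep 6 or waking 2), 0 to 3 for bound sleep deprivation against waking (0 without waking 1; 1 without waking 5, waking 6 or sleep-deprived 8; 2 without waking 2 or sleep-deprived 6, 7, 9 or 11), 5 to 7 for unbound waking against sleep (5 without sleep 2, 3 or 5) and 1 to 2 for the fraction difference of waking against sleep (2 without sleep 5). It gave 7 to 9 for bound and 8 to 10 for unbound sleep deprivation against sleep, 2 to 3 for unbound sleep deprivation against waking, 13 to 15 between fractions, and 2 and 0 for the other fraction differences.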
